A study of Zea mays with 45 samples.

Results

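*an1* (*anther ear1*) is the maize gene for ent-copalyl diphosphate synthase, and its signal was followed here in 3 zones of the growing leaf as the plants were starved of carbon by an extended night. The array annotation gives it 1 probe set among 17555 tested probe sets, of which 1452 carry 1 gene name, for 1108 different genes. *an1* was selected on its own signals in these samples: it was chosen by its group means, low in the elongation zone, high on both sides of it, and changed late in the dark. Its levels and differences are therefore described without a test. Tests are given only for other genes, from lists of the pathway and of processes next to it. These lists, too, were chosen with earlier results of these data known.

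The enzyme acts in the plastid. It folds geranylgeranyl diphosphate (GGPP), a precursor shared with carotenoids and the chlorophyll side chain, into ent-copalyl diphosphate, which is the first committed step towards gibberellins. Gibberellins are growth hormones: maize plants that lack *an1* are dwarf and form anthers in the ear, and in the growing maize leaf gibberellin is known to peak where dividing cells pass into elongation.

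Leaves of genotype SL (KWS Einbeck), the single genotype of all arrays with values, were read on an Affymetrix maize array. The daily cycle had 14 h of light followed by 10 h without, and leaves were sampled when the light period ended (the label's end of day, here dusk), when the dark period ended (end of night, here dawn), and after 6, 14 or 24 h in which the night was simply prolonged. At each time the division zone (0 to 1.5 cm above the ligule), the elongation zone (3 to 4.5 cm) and a mature zone were cut, which makes 15 groups. Each array is a pool of 5 plants; 12 groups hold 3 arrays, and the elongation and mature zones at dusk and the mature zone at 6 h hold 2. Errors and p-values thus measure the spread between pools, and precision is limited by the few arrays.

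Values are log2 signals. A group was called above the dim level when its mean exceeded the 95th percentile, in that group, of 66 probe sets for reporter and selection genes, taken as background. Of these, 1 was at or above *an1* even in the division zone at dusk, so not all of them were dim. Their 95th percentile differed between groups, from 5.98 in the elongation zone at dusk to 6.81 in the mature zone at 6 h. Fewer cells of a type in a sample and less RNA per cell cannot be told apart in such tissue. At dawn all 6 mature zone markers were highest in the mature zone, as with the Rubisco activase gene *rca1* at 13.09 there, 5.02 in the elongation zone and 4.75 in the division zone. The 5 growth markers were lowest in the mature zone, with the cyclin gene *cyc3* at 10.00, 9.07 and 6.61 from base to tip. The elongation markers *expB4* and *tub4* were highest in the elongation zone, whereas *expA1*, an expansin gene listed with them, was highest in the mature zone, at 10.20 against 7.80. Array medians began at 7.37 in the mature zone and all lay below those of the growth zones, which ran from 7.56 to 7.68. Mature zone replicate 3 at dawn stood apart, with the lowest array weight of all, 0.0983.

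*an1* was bright at the leaf base. In the division zone it read 8.96, 8.97 and 8.66 at dusk. It read 8.41, 7.92 and 8.49 at dawn, below all dusk arrays. At 6 h of extended night the arrays read 8.63, 8.56 and 8.41, which overlapped dawn. At 14 h they read 7.39, 7.15 and 7.20, the lowest values of the zone at any time. At 24 h they read 7.90, 7.86 and 7.46, above every 14 h array and still below every dawn array.

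In the elongation zone, next along the leaf, *an1* was dim for most of the experiment. It read 5.33 and 5.30 at dusk, 5.56, 5.44 and 5.50 at dawn, and 5.47, 5.51 and 5.49 at 6 h. At 14 h the arrays read 5.43, 5.18 and 5.95, of which only replicate 3 lay above the earlier arrays. These 4 groups lay below the dim level, with 7 to 9 of the 66 reporter probe sets at or above *an1*. At 24 h the arrays read 7.02, 6.38 and 6.79, each higher than any earlier array of the zone, and the group mean passed the dim level.

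In the mature zone *an1* was bright first and dim later. It read 7.68 and 7.55 at dusk and 7.08, 7.69 and 7.65 at dawn, with overlapping arrays. At 6 h it read 6.94 and 6.71, below all 3 dawn arrays. At 14 h it read 5.36, 5.34 and 5.95 and at 24 h 5.28, 5.11 and 4.92, all below the dim level, where 12 and 17 of the 66 reporter probe sets were as bright or brighter. The 24 h arrays included the 2 lowest *an1* values of the series.

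**Figure D1:**
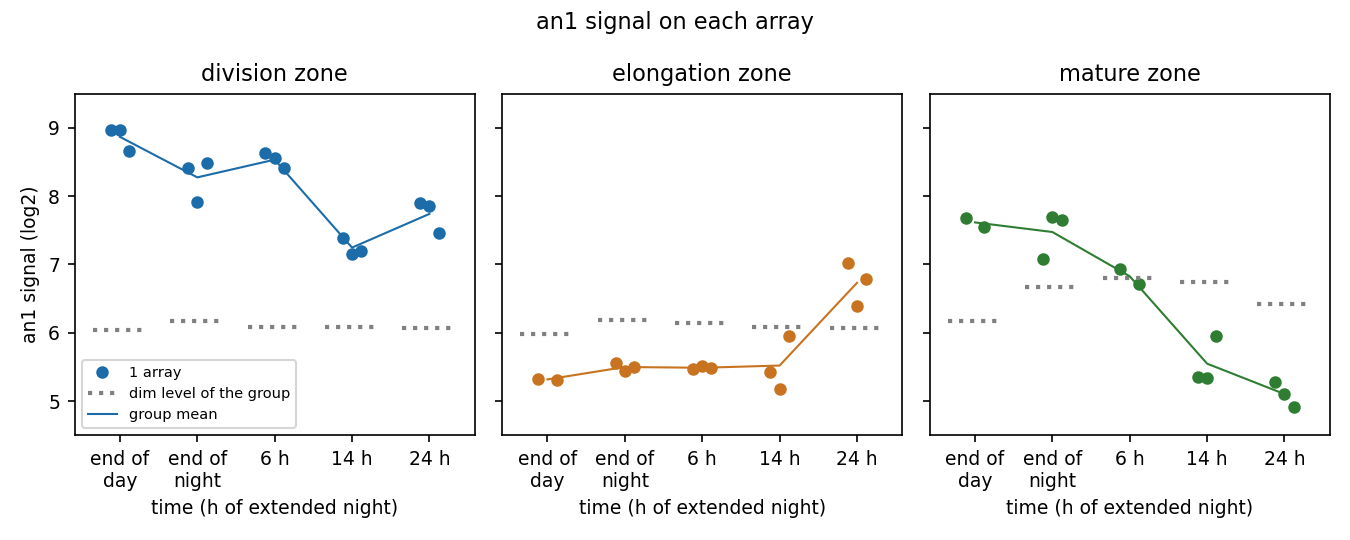
*an1* signal (log2) on each array (points) against time in the division, elongation and mature zones, with lines through the group means and dotted bars at the dim level of each group. The division zone stays above its dim level at all 5 times, the elongation zone passes it only at 24 h, and the mature zone lies below it at 14 h and 24 h.

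Ordered by group mean, the division zone filled the first 4 places. They were dusk at 8.87 ± 0.18 (SD, n = 3), 6 h at 8.53 ± 0.12 (n = 3), dawn at 8.27 ± 0.31 (n = 3) and 24 h at 7.74 ± 0.25 (n = 3). The mature zone at dusk, 7.61 ± 0.09 (n = 2), and at dawn, 7.47 ± 0.34 (n = 3), came next, ahead of the division zone at 14 h, 7.25 ± 0.13 (n = 3). The mature zone at 6 h had 6.83 ± 0.16 (n = 2) and the elongation zone at 24 h 6.73 ± 0.32 (n = 3). These 9 groups were those above the dim level, the mature zone at 6 h by the smallest margin, since its dim level was 6.81.

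Below the dim level lay the mature zone at 14 h, 5.55 ± 0.35 (n = 3), then the elongation zone at 14 h, 5.52 ± 0.39 (n = 3), at dawn, 5.50 ± 0.06 (n = 3), at 6 h, 5.49 ± 0.02 (n = 3), and at dusk, 5.32 ± 0.02 (n = 2). The mature zone at 24 h was last, at 5.10 ± 0.18 (n = 3). Of the 14 pairs of neighbours in this order 8 overlapped in their arrays and did not differ beyond their spread. The 6 that were separate were the division zone at dusk and at 6 h, the division zone at dawn and at 24 h, the division zone at 14 h and the mature zone at 6 h, the elongation zone at 24 h and the mature zone at 14 h, and the last 2 pairs of neighbours.

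Along the leaf at dawn, *an1* was lower in the elongation zone than in the division zone by a log2 difference of −2.77 ± 0.19 (SE), at least 4.26-fold when the elongation zone is set at its dim level. It was higher again in the mature zone, by 1.97 ± 0.19 over the elongation zone, or at least 2.45-fold, and by 1.89 without mature replicate 3. In both steps the arrays did not overlap. An elongation zone at least 1 log2 unit below both other zones was found for 55 of the 17555 probe sets (0.313%) at dawn and for 88 (0.501%) at dusk, *an1* among both. *an1* was chosen for this shape, so both shares are given as a description. The other named genes with this shape at dusk were the cellulose synthase genes *CesA12* and *cesa10*, the kinase gene *MPK4*, *AGP2* and *cyppdkZm1*. *MPK4* was below the dim level in both the division and elongation zones (5.03 and 3.70). *cesa10* (5.46) and *cyppdkZm1* (5.12) were below it in the elongation zone.

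The profile along the leaf did not keep this shape in the dark. At 14 h the elongation and mature zones had means of 5.52 and 5.55, with overlapping arrays below the dim level. At 24 h the levels were ordered from base to tip, at 7.74, 6.73 and 5.10, and no array of one zone overlapped those of the next.

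**Figure D2:**
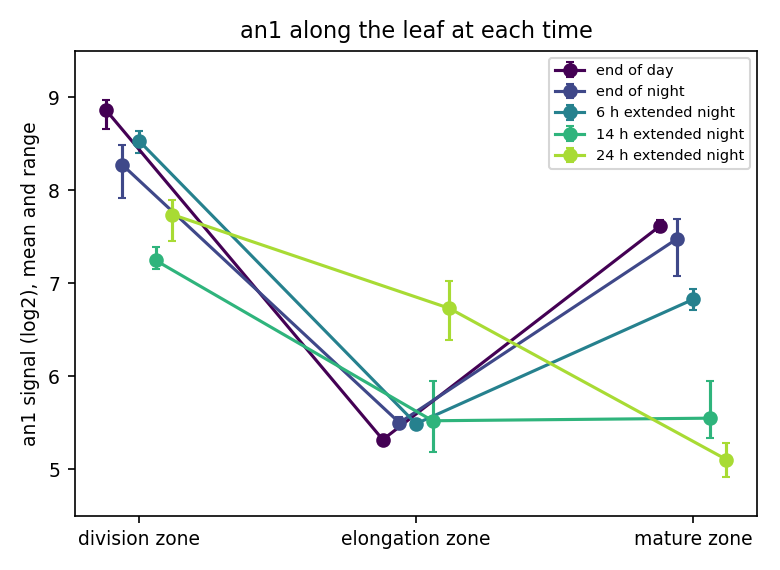
Mean *an1* signal (log2) in the 3 zones along the leaf, 1 line for each of the 5 times, with bars from the lowest to the highest array of a group. The elongation zone is the low point up to 6 h, and at 24 h the level is highest in the division zone and lowest in the mature zone.

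Over the night itself, from dusk to dawn, *an1* was lower in the division zone by −0.59 ± 0.19 (1.51-fold, arrays separate). The mature zone differed by −0.14 ± 0.21, with overlapping arrays, and in the elongation zone the difference was 0.18 ± 0.21, with separate arrays that were all below the dim level. The first 6 h of extended night brought 0.26 ± 0.19 at the leaf base and −0.01 ± 0.19 next to it, both with overlapping arrays, and −0.65 ± 0.21 in the mature zone (1.57-fold, arrays separate).

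The 14 h arrays fall at the clock time at which the day would have ended, so they are set against dusk. *an1* was lower in the division zone by −1.62 ± 0.19 (3.07-fold) and in the mature zone by −2.07 ± 0.21 (at least 1.83-fold), with separate arrays in both. For the elongation zone the difference was 0.20 ± 0.21, both groups were below the dim level, and the value ran from −0.01 to 0.37 as single arrays were left out, the lowest without replicate 3 at 14 h.

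The 24 h arrays return to the clock time of dawn. *an1* was then lower in the division zone by −0.53 ± 0.19 (1.45-fold). Elongation zone arrays read higher by 1.23 ± 0.19 (at least 1.46-fold), and mature zone arrays were lower by −2.37 ± 0.19 (at least 2.07-fold, and −2.28 without dawn replicate 3). The arrays were separate in all 3 zones. The next rule of size follows the late change by which *an1* was chosen, so it is a description. A 24 h level at least 1 log2 unit higher in the elongation zone and at least 1 lower in the mature zone was found for 29 of the 17555 probe sets (0.165%). With *an1*, the named genes among them were *tip2a*, an aquaporin gene of the vacuole membrane (2.16 and −3.44), *PLTP*, a phospholipid transfer protein gene with 2 probe sets (1.48 and −2.26 for the brighter), *vpp1*, a vacuolar proton pump gene (1.93 and −1.66), and *crtRB1*, a carotene hydroxylase gene (1.35 and −1.27).

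The zone markers were read over the same 24 h. In the elongation zone the mean level of the 6 mature zone markers ranged over arrays from 7.62 to 7.89 at dawn and from 7.50 to 7.95 at 24 h, with 2 of 6 higher and 4 lower, beside 13.44 on each mature zone array at dawn. The 24 h range thus held the dawn range. The mean of the 5 growth markers there ranged from 10.47 to 10.64 at dawn and from 9.85 to 10.05 at 24 h. Of these 5, 1 was higher and 4 were lower. In the division zone at dawn this mean was 11.12 to 11.24. Over arrays of the elongation zone the mean of the 3 elongation markers ran from 9.76 to 9.86 at dawn. At 24 h it ran from 9.43 to 9.80, with 2 of 3 markers higher and 1 lower. In the mature zone the mean of the mature zone markers was 12.78 to 12.92 at 24 h, with 1 of 6 higher than at dawn and 5 lower. The mean of the 3 elongation markers there ranged from 8.29 to 8.90 at dawn and from 6.25 to 6.65 at 24 h, with 3 of 3 lower. The mean of the 5 growth markers there ranged from 8.41 to 9.59 at dawn and from 8.96 to 9.05 at 24 h, with 4 of 5 higher. Single markers of a list changed in opposite directions, so these means do not measure the mix of cells in a sample. The part of these marker levels in the *an1* differences was not tested.

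Of the variance between the 15 group means of *an1*, 65.1% lay between zones, 11.3% between times and 23.6% in the combination of zone and time. The medians of these shares over all tested probe sets were 71.3%, 12.3% and 11.6%. These shares come from the group means that chose *an1* and are given as a description.

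The lists written for the pathway covered its later steps, its inactivation and perception, its response genes and other diterpene cyclases. They also covered plastid isoprenoid supply and GGPP use, abscisic acid and class I KNOX genes. 5 of these 8 lists had a gene on the array, 12 genes in all. The annotation named no gene of the inactivation, perception and response lists, so these were not examined. Tests used limma with Benjamini-Hochberg adjustment over all 17555 probe sets, and a gene was called under 0.05. Comparisons along the leaf and those at 24 h share the dawn arrays. *dxr*, *dxs1*, *hds1*, *vp9* and *vp14* were above the dim level in all 15 groups, *psy2* in 5 and *KS* in 3. *d3*, *an2*, *kn1*, *lg3* and *lg4b* were below it in every group, so their differences are between dim signals and no fold is given for them.

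Among the genes after *an1* in gibberellin synthesis were *KS* and *d3*. The reference gene table gives *KS*, the name of ent-kaurene synthase, also as a terpene synthase under the name tps1, so its role is not settled here. *KS* was dim in the division zone (group means from 5.31 upwards) and bright only in the mature zone. There it read 9.21 and 8.49 at dusk, 9.33, 8.20 and 7.89 at dawn and 7.83 and 7.34 at 6 h, then 5.71, 6.00 and 5.45 at 14 h and 5.41, 5.33 and 5.23 at 24 h. All arrays up to 6 h lay above all later ones. It fell in the mature zone by −3.13 ± 0.26 from dusk to 14 h (at least 4.31-fold, adjusted p = 2.5e-12, limma) and by −3.15 ± 0.23 from dawn to 24 h (at least 4.16-fold, adjusted p = 1.2e-13, limma). In the elongation zone, where *an1* was higher at 24 h, *KS* differed by −0.11 ± 0.23 and was not called (adjusted p = 0.75, limma).

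*d3* encodes ent-kaurenoic acid oxidase, a later step of the same pathway, and its signal of 4.55 to 6.09 stayed below the dim level. It rose from dusk to 14 h in the division zone, 4.44, 4.61 and 4.59 becoming 5.82, 5.91 and 5.53 (1.20 ± 0.16, adjusted p = 2.3e-07, limma), and in the elongation zone (1.18 ± 0.18, adjusted p = 2.3e-06, limma). In the division zone *an1* and *d3* thus lay on opposite sides of 0 at 14 h. At 24 h *d3* was higher in the elongation zone by 0.81 ± 0.16 (adjusted p = 0.00012, limma), with 4.89, 4.65 and 4.73 at dawn and 5.67, 5.59 and 5.44 at 24 h. In the mature zone its fall of −0.42 ± 0.16 (adjusted p = 0.025, limma) was lost with array weights, when those groups were fitted alone and without any 1 of mature dawn replicate 1 and 24 h replicates 2 and 3. *an2*, the copalyl diphosphate synthase gene of defence diterpenes, ranged from 3.94 to 4.88. It was called in the mature zone against the elongation zone (0.35 ± 0.11) and in the division zone at 24 h (−0.31 ± 0.11), the latter lost without division dawn replicate 1 or 3 or 24 h replicate 2 or 3.

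*dxs1*, *dxr* and *hds1* encode enzymes of the methylerythritol phosphate pathway, which lies before GGPP in the plastid. *psy2*, phytoene synthase, takes GGPP towards carotenoids. The synthase that makes GGPP itself was not among the listed genes. From the division to the elongation zone at dawn 4 of the 12 listed genes were higher and 0 lower. Of all probe sets 42.3% were called, 19.8% higher and 22.5% lower. The 4 were *dxs1* (1.01 ± 0.13), *dxr* (0.93 ± 0.10), *hds1* (1.13 ± 0.10) and the zeta-carotene desaturase gene *vp9* (0.78 ± 0.10), each opposite in sign to *an1*. In the step from the elongation zone to the mature zone, 11 of 12 were higher and 0 lower, with 76.2% of all probe sets called, 38.7% higher and 37.6% lower. The median difference was 1.28 over the list and 0.06 over all probe sets, and the latter became 0.22 once arrays were centred on their medians.

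Within this step *psy2* was higher by 3.52 ± 0.15 (11.5-fold), *dxs1* by 2.69 ± 0.13, *hds1* by 2.04 ± 0.10, *dxr* by 1.85 ± 0.10 and *vp9* by 1.83 ± 0.10. *vp14*, the 9-cis-epoxycarotenoid dioxygenase gene of abscisic acid synthesis, was higher by 0.70 ± 0.13. The second, dim probe set of *dxr* differed in the same direction, by 1.17 ± 0.21. The calls of the dim KNOX genes *lg3* (0.33 ± 0.11) and *lg4b* (0.27 ± 0.11) were lost when the compared groups were fitted alone. They were also lost without elongation replicate 3 or mature replicate 1, and that of *lg4b* also without elongation replicate 1 or mature replicate 2. *kn1* was not called (−0.07 ± 0.09, adjusted p = 0.50, limma).

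From dusk to 14 h, 1 listed gene was higher and 2 were lower in the division zone, where 44.6% of all probe sets were called (20.6% higher, 24.0% lower). Elongation zone calls were 3 higher and 2 lower, against 45.5% of all probe sets (21.7% and 23.8%), and in the mature zone 2 and 5, against 60.8% (34.0% and 26.8%). The list medians were 0.00, 0.06 and 0.15, beside −0.05, 0.00 and 0.11 over all probe sets. In the mature zone *psy2* fell by −2.13 ± 0.17 (at least 2.71-fold), *vp9* by −2.59 ± 0.11, *dxr* by −1.17 ± 0.11 and *hds1* by −1.04 ± 0.12, while *dxs1* differed by 0.20 ± 0.15 and was not called (adjusted p = 0.24, limma). *vp9* also fell in the division zone, by −0.74 ± 0.10, where *an1* was lower too, and in the elongation zone, by −0.91 ± 0.11. There *dxs1* (0.53 ± 0.15) and *vp14* (0.69 ± 0.15) rose and *hds1* fell (−0.36 ± 0.12), the last not called without elongation dusk replicate 1 or 2 or 14 h replicate 1.

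Other calls at 14 h were lost in some alternatives. That of *psy2* in the division zone (−0.38 ± 0.15, adjusted p = 0.045, limma) was lost without any 1 of the 6 arrays, after centring and with the replicate number as a block (adjusted p = 0.052). That of *vp14* in the mature zone (0.42 ± 0.15) was lost without dusk replicate 2 or 14 h replicate 1, with array weights and when the compared groups were fitted alone. The last fit also lost *kn1* there (0.37 ± 0.11).

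From dawn to 24 h, 1 listed gene was higher and 3 were lower in the division zone, where 32.8% of all probe sets were called (17.9% higher, 15% lower). Elongation zone calls were 1 higher and 4 lower, against 42.4% of all probe sets (21.8% and 20.6%), and in the mature zone 1 and 8, against 57.9% (31.6% and 26.3%). The list medians were −0.16, −0.14 and −0.88, beside −0.06, −0.05 and 0.04 over all probe sets. All 4 genes of plastid isoprenoid supply and GGPP use fell in the mature zone. *psy2* read 9.80, 10.02 and 9.53 at dawn and 5.42, 4.86 and 5.64 at 24 h, a fall of −4.48 ± 0.15 (at least 10.3-fold, adjusted p = 1.2e-21, limma). *hds1* fell by −1.58 ± 0.10, *dxs1* by −1.43 ± 0.13 and *dxr* by −1.34 ± 0.10, and *vp9* by −2.01 ± 0.10.

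In the elongation zone at 24 h, where *an1* was higher, 4 of these 5 genes fell. *dxs1* fell by −0.42 ± 0.13, *hds1* by −0.43 ± 0.10, *vp9* by −0.57 ± 0.10 and *psy2* by −0.46 ± 0.15. The 24 h level of *psy2* was below the dim level, so its fall was at least 1.14-fold, and it was not called without 24 h replicate 3. The change of *dxr*, −0.07 ± 0.10, was not called. In the division zone *d3* rose (0.62 ± 0.16) and *vp9* fell (−0.35 ± 0.10), while the call of *psy2* (−0.42 ± 0.15) was lost without any 1 of the 6 arrays. The calls of *kn1* (0.32 ± 0.09) and *lg3* (−0.39 ± 0.11) in the mature zone were lost when the compared groups were fitted alone, that of *kn1* also with array weights and without 24 h replicate 2, and that of *lg3* also without dawn replicate 1.

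The change from dawn to 24 h was also compared between the elongation and mature zones, by an interaction term chosen after the data were seen. Of the 12 genes 7 had the higher change in the elongation zone and 1, *kn1*, the lower, while 48.7% of all probe sets were called, 22.0% higher and 26.7% lower. Changes in these zones share no arrays. For *d3* the change was 0.81 in the former and −0.42 in the latter zone, a difference of 1.23 ± 0.23 (adjusted p = 3.3e-05, limma), and for *KS* it was −0.11 and −3.15, a difference of 3.05 ± 0.32 (adjusted p = 1.9e-09, limma). *KS* was below the dim level in the elongation zone at both times, so a fall there could hardly show.

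**Figure D3:**
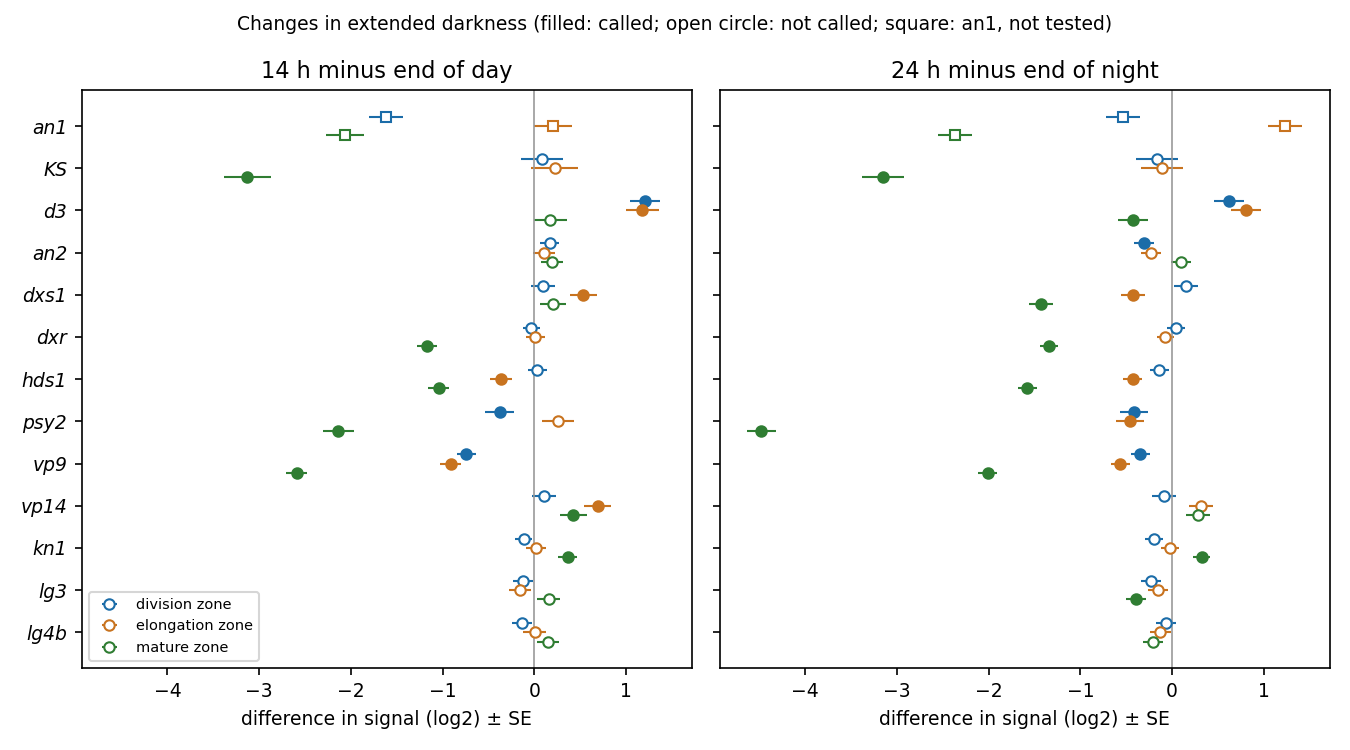
Difference in signal (log2, ± SE) from dusk to 14 h (left) and from dawn to 24 h (right) for *an1* (squares, not tested) and the 12 listed genes (circles, filled where called), by zone. In the mature zone *an1*, *KS*, *psy2* and *vp9* lie far below 0 in both panels, and at 24 h in the elongation zone *an1* stands at 1.23 and *d3* at 0.81.

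Likeness to *an1* was measured by Pearson's r over the 15 group means among 855 named genes above the dim level. It is a description: the points share zones, times and arrays. The highest were *GRF14* (0.82), *GRF13* (0.82) and *GRF2* (0.81), which encode growth-regulating factors, then *yab14* (0.81), a YABBY transcription factor gene, and *CesA12* (0.80). *yab14* had group means of 9.19 to 10.22 in the division zone and of 4.91 to 5.96 elsewhere. The lowest were *GST3*, a glutathione S-transferase gene (−0.96), *glu1*, a beta-glucosidase gene (−0.85), and LOC732757 (−0.82). *GST3* was lowest where *an1* was highest, at 10.34 in the division zone at dusk, and among its highest at 11.25 in the mature zone at 24 h.

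Differences between zones dominate that measure, so it was repeated after each zone mean was subtracted. The highest were then *me3* (0.86), the malic enzyme gene of C4 photosynthesis, *Pti1d* (0.85), *rbohB* (0.85), an NADPH oxidase gene, and *crs1* (0.85) and *caf2* (0.84), which act in the splicing of chloroplast introns. In the elongation zone *rbohB* read 7.95 at dawn and 8.23 at 24 h, while mature leaf read 8.33 and then 7.02. The lowest were *GST3* again (−0.92), *copz1*, a coatomer gene (−0.86), and *pdi6*, a protein disulfide isomerase gene (−0.86). With Spearman's rho 2 of the 5 highest genes were kept in each measure, and without replicate 3 of the mature zone at dawn all 5 were kept in both.

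**Figure D4:**
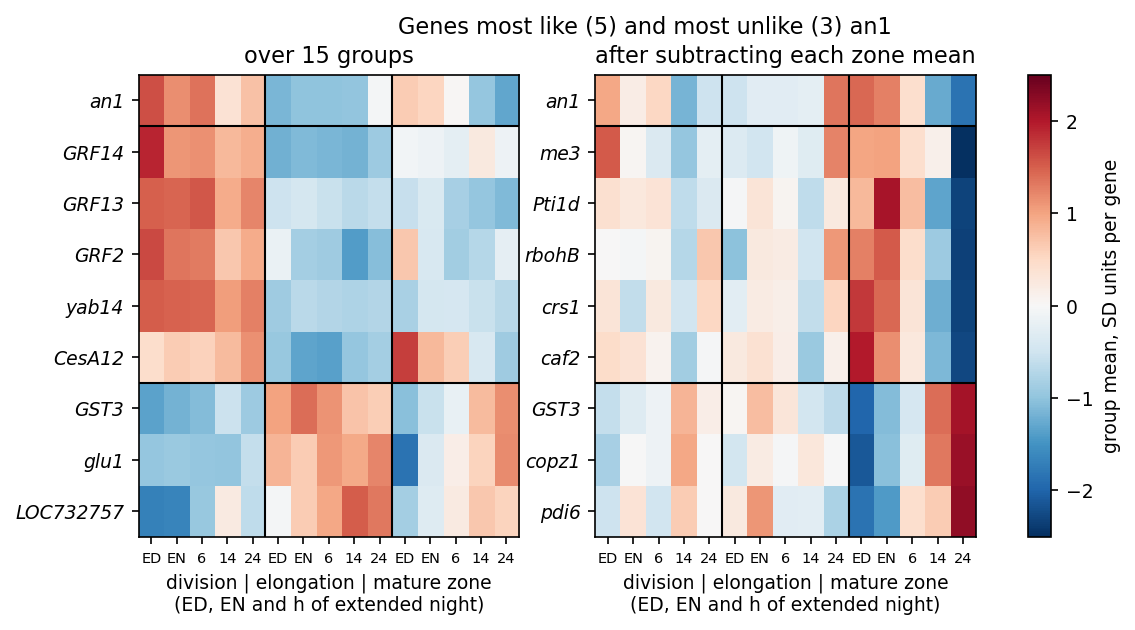
Group means of *an1* (top row), the 5 genes most like it and the 3 most unlike it, in SD units per gene, over the 15 groups (left) and after each zone mean is subtracted (right). Columns run through the 5 times in the division, elongation and mature zones (ED, end of day; EN, end of night). On the left *an1* and the genes most like it lie above their mean in the division zone, and on the right they are lowest in the mature zone at 24 h.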

How the data were processed

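The deposited values are log2 signals, made by the authors with RMA per the submitters' processing notes, and were used as deposited. Which RMA version was run is not given in the sources used here. Of 45 labelled arrays, 42 had values, and 0 columns belonged to other series. The 113 control and 66 reporter probe sets were left out of the tests, and 17555 were kept. Gene names come from the platform annotation and a RefSeq gene table (Zm-B73-REFERENCE-NAM-5.0), which served for names alone (1060 of 1108 genes matched).

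A model of the 15 group means was fitted by limma 3.58.1 (lmFit, eBayes; R 4.3.3), which left 27 residual and 4.01 prior degrees of freedom and 1 spread per probe set shared by all groups. The median SE was 0.117 for 3 against 3 arrays. Called means a Benjamini-Hochberg adjusted p under 0.05 over all probe sets of a comparison. A fold is given where both groups exceeded their dim level. For "at least", each array of the dim group was set to the higher of its own value and the group's dim level before averaging.

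*an1* and the gene lists were chosen with earlier results of these data known. Named genes are *an1*, every listed gene of the gibberellin and diterpene lists, the called ones of the other lists, and the 5 most and 3 least like *an1* in each of 2 measures. The genes that met a rule of size together with *an1*, and uncalled genes outside those lists, were named after their values were seen. The brightest probe set stands for a gene, and 1 wrong symbol match was taken out. On simulated data for the mature zone at 24 h (17555 probe sets, 200 of them changed), 60% of changes of 0.5, 96% of 1 and 100% of 2 were found, with 7 false calls among 183. These rates hold for that setting alone, since 57.9% of all probe sets were called in the real comparison.

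Same-numbered arrays of the division and elongation zones at dawn deviated together (r = 0.28, 0.21 and 0.33), so there the number pairs them by the rule that each pair exceed 0.1. In the other comparisons not every pair exceeded 0.1, so no pairing was taken. The labels do not say what a number marks, so low correlations cannot show that those arrays are unrelated. Alternatives were centring, a filter on dim probe sets, array weights, the compared groups alone, replicate and random blocks, leaving out each array and, chosen after seeing the data, a 90th percentile for the dim level.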

Additional observations from a re-analysis of the deposited data

Results flagged for a closer look

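From dawn to 24 h, *an1* was higher on every elongation zone array, by 1.23, and lower on every mature zone array, by −2.37. The difference between the zones was not tested.

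For the listed genes the change at 24 h in the elongation zone was compared with that in the mature zone by an interaction term in the limma fit, a comparison chosen after the data were seen. It was called for 48.7% of all probe sets. The elongation zone change exceeded the mature zone change by 4.02 ± 0.22 for *psy2* (adjusted p = 5.9e-16), 3.05 ± 0.32 for *KS* (adjusted p = 1.9e-09) and 1.45 ± 0.14 for *vp9* (adjusted p = 5.2e-10). It did so by 1.27 ± 0.14 for *dxr*, 1.23 ± 0.23 for *d3*, 1.15 ± 0.15 for *hds1* and 1.01 ± 0.19 for *dxs1*. It was smaller by −0.35 ± 0.13 for *kn1* (adjusted p = 0.031), whose signal was below the dim level throughout. *KS* was below the dim level in the elongation zone at dawn and at 24 h (5.77 and 5.66). *psy2* stood at 6.26 and 5.80 there, beside dim levels of 6.18 and 6.07. A fall in that zone could hardly show for *KS*. *psy2* was called lower there (−0.46 ± 0.15, adjusted p = 0.017, limma), a call lost without 24 h replicate 3. Near the dim level only a limited fall could show for it. Both differences rest mainly on the mature zone changes, −3.15 for *KS* and −4.48 for *psy2*. *d3* was below the dim level in every group too. It was called higher in the elongation zone (0.81) and lower in the mature zone (−0.42), and the latter call was lost with array weights (adjusted p = 0.17, limma), when the compared groups were fitted alone (adjusted p = 0.16, limma), without dawn replicate 1 (−0.22, adjusted p = 0.26, limma) and without 24 h replicate 2 or 3.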

How the results depend on the processing

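All 54 alternatives for the *an1* differences and all 15 centred levels moved by less than its residual SD of 0.24. Leaving out single arrays gave −2.95 to −2.67 for the elongation against the division zone and 1.87 to 2.17 for the mature against the elongation zone. At 14 h it gave −1.72 to −1.57 (division) and −2.27 to −1.96 (mature), and at 24 h −0.71 to −0.39, 1.09 to 1.40 and −2.57 to −2.26 from base to tip. A 90th percentile for the dim level put 10 groups above it instead of 9. Of 94 alternatives for the counts of listed genes, 88 stayed within 1.5 times. Without dim probe sets the count was 6 in place of 11 for the mature against the elongation zone, 2 in place of 4 in the division zone at 24 h and 5 in place of 9 in the mature zone at 24 h, as fewer listed genes were tested. Leaving out single arrays gave 4 to 5, 9 to 11, 2 to 2, 4 to 5, 6 to 7, 2 to 3, 4 to 6 and 7 to 10 for the 8 comparisons in the order of the report. The division zone count at 24 h was 2 without 24 h replicate 2 or 3 or dawn replicate 1. With the replicate number as a block the counts were 4, 11, 2, 5, 7, 4, 6 and 9, and the pairing along the leaf changed no call there. Of 548 alternatives for single genes, 45 lost the call and 0 reversed it. Signals below the dim level limit *d3*, *an2*, the KNOX genes and *an1* in 6 groups.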
